A study of Mus musculus with 11 samples.

Results

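The genes described here were 39 cell cycle and proliferation genes, taken by name from the 37583 genes of the deposited expression table. They were read in EGFP-positive CX3CR1+ mononuclear phagocytes (macrophages, dendritic cells and related cells of the immune system) that were sorted in 2 rounds from the mouse epididymis, the duct in which sperm mature and are stored. All libraries came from CX3CR1 EGFP +/- mice aged 12 weeks, so every group carried the reporter allele, and the labels name no treatment and no group without the reporter. The 3 groups were the initial segments (IS, 4 libraries), the caput and corpus together (caput/corpus, 3 libraries) and the cauda (4 libraries), with 4 epididymides pooled for each library. The labels do not say which animals each library came from, so p-values measure the spread between these libraries, which may in part be technical.

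Cells that divide copy their DNA in S phase and share it out in mitosis. D-type cyclins with CDK4 and CDK6, followed by cyclin E with CDK2, phosphorylate the RB family of proteins and so release the E2F factors, which switch on the genes of DNA synthesis. The genes of mitosis are switched on later, largely through CCAAT boxes and the cell cycle homology region (CHR). The DREAM and MuvB complexes bind the CHR. Some tissue macrophages and dendritic cell precursors can divide in place, and transcripts of these genes are widely used to find such cells. The members fell into 17 markers of cycling cells and mitosis, 9 genes of S phase entry and nucleotide supply, the 6 genes of the replicative helicase, 5 D-type cyclins and their kinases, and 2 inhibitors of cyclin-dependent kinases.

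The promoter table of RefSeq (build GRCm38.p6) held 35 windows, from 250 bases before to 50 bases after the transcription start, for 32 of the 39 members. Aurkb, Tpx2, Ccna2, Ccne2, Mcm4, Ccnd1 and Ccnd2 had no match. The letters CCAAT, read on both strands, were found in 26 of the 35 member windows, against 37.4% of all 32851 windows of that length, and in 14 of the 15 windows of the mitosis markers. The CHR letters TTTGAA, on either strand, were in 12 of the 35 member windows, against 17.9% of all windows, and 11 of these 12 belonged to mitosis markers. An E2F site, written as TTTGGCGC, TTTCGCGC or TTTCCCGC on either strand with overlapping matches counted as 1, was in 6 of the 35 member windows against 1.84% of all windows. These 6 were the helicase genes Mcm3, Mcm5, Mcm6 and Mcm7, the mitotic kinase Cdk1 and the S phase kinase Cdk2. Such a match describes the letters and is neither a bound site nor a cause of any value below.

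Promoter stretches of 5 members are printed because they show these elements in genes whose values are given below: 4 that differed between IS and cauda and Top2a, the usual marker of S to M phase. Each runs 5′ to 3′ along the gene, from 150 bases before the start to 20 after it, with matches to the 3 motifs in capitals.
Ccnb2, chr9:70421535-70421704, minus strand: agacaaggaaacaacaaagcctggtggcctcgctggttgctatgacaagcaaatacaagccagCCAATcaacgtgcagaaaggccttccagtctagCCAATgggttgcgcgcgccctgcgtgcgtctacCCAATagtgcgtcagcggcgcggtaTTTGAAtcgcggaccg
Top2a, chr11:99024170-99024339, minus strand: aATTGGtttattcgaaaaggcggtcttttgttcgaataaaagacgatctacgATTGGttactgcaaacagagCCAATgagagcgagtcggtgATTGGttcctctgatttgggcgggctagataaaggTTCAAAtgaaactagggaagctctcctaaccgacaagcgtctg
Mcm6, chr1:128359686-128359855, minus strand: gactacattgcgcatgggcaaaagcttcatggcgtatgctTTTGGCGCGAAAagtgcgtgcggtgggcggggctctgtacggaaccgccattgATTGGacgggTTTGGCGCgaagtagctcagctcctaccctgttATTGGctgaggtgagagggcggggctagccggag
Cdk2, chr10:128705032-128705201, minus strand: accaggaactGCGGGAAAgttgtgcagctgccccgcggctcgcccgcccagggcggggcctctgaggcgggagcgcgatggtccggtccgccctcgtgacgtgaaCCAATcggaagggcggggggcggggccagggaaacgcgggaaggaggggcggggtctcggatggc
Rrm1, chr7:102441545-102441714, plus strand: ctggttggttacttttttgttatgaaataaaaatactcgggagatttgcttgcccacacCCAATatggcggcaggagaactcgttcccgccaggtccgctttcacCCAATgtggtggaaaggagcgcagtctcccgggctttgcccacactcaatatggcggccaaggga
The mitotic genes Ccnb2 and Top2a carried several CCAAT boxes and 1 CHR near the start. In Ccnb2 the CCAAT boxes began at positions -87, -54 and -21 from the start. The helicase gene Mcm6 and Cdk2 carried E2F letters, which in Mcm6 stood beside CCAAT boxes read on the opposite strand. Rrm1 had CCAAT boxes and none of the E2F or CHR letters in its window.

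Reads per library ranged from 16873180 to 31737132, and the 39 members took up 0.140% to 0.186% of them. Levels are given as CPM, the reads counted on a gene scaled to a common library size after TMM correction, a unit that is not divided by gene length. All 39 members passed the filter on low counts, which kept 15116 genes. The lowest count of a member in a library was 42 reads (Ccne2 in caput/corpus replicate 2), apart from Bub1b, which had 0 reads in cauda replicate 1, where 3 reads equal 0.106 CPM. Cauda replicate 1 differed from the rest in that it had reads on 13434 genes against 17053 to 18837 for the other 10 libraries. The deposited count file and the named expression column also disagreed for this library, for IS replicate 2 and for caput/corpus replicate 1, and the reads of the named column were used. For several members the log2 fold change without cauda replicate 1 is given beside the value with it.

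Cell cycle transcripts were present in all 3 regions at moderate levels. Per length, the members had a median of 6.59 RPKM over the 11 libraries (reads per kilobase of gene, scaled to library size), against 4.91 over all genes tested. Among the members the D-type cyclin Ccnd3 was highest at 53.6 RPKM and the kinetochore gene Cenpf lowest at 0.812 RPKM. The cauda had the highest mean CPM for 31 of the 39 members, the IS for 6 and caput/corpus for 2. Over all genes tested the cauda was highest for 36.9%. Without cauda replicate 1 the cauda was highest for 30 members, the IS for 6 and caput/corpus for 3. In bulk RNA of sorted cells, fewer cycling cells and less of these RNAs per cell cannot be told apart.

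Summed over each role, the mitosis markers and the S phase genes were highest in the cauda libraries, without overlap. The 17 mitosis markers together reached 285 to 292 CPM in the 4 IS libraries, 272 to 316 in the 3 caput/corpus libraries and 390 to 442 in the 4 cauda libraries. The 9 S phase genes summed to 208 to 253 CPM in IS, 213 to 244 in caput/corpus and 282 to 331 in cauda. Every cauda library lay above every library of the other regions in both sums. Cauda replicate 1 had the highest sum of the mitosis markers, and the other cauda libraries ranged from 390 to 418 CPM. The helicase sum was 285 to 402 CPM in IS, 256 to 369 in caput/corpus and 399 to 485 in cauda, so that the highest IS library lay just above the lowest cauda library. The D-type cyclins and their kinases overlapped between all regions, at 476 to 633, 534 to 607 and 566 to 647 CPM in the same order. The sum of both inhibitors was 61.2 to 80.4 CPM in IS, 71.8 to 98.5 in caput/corpus and 82.2 to 92.6 in cauda. No test was made on these sums.

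**Figure D1:**
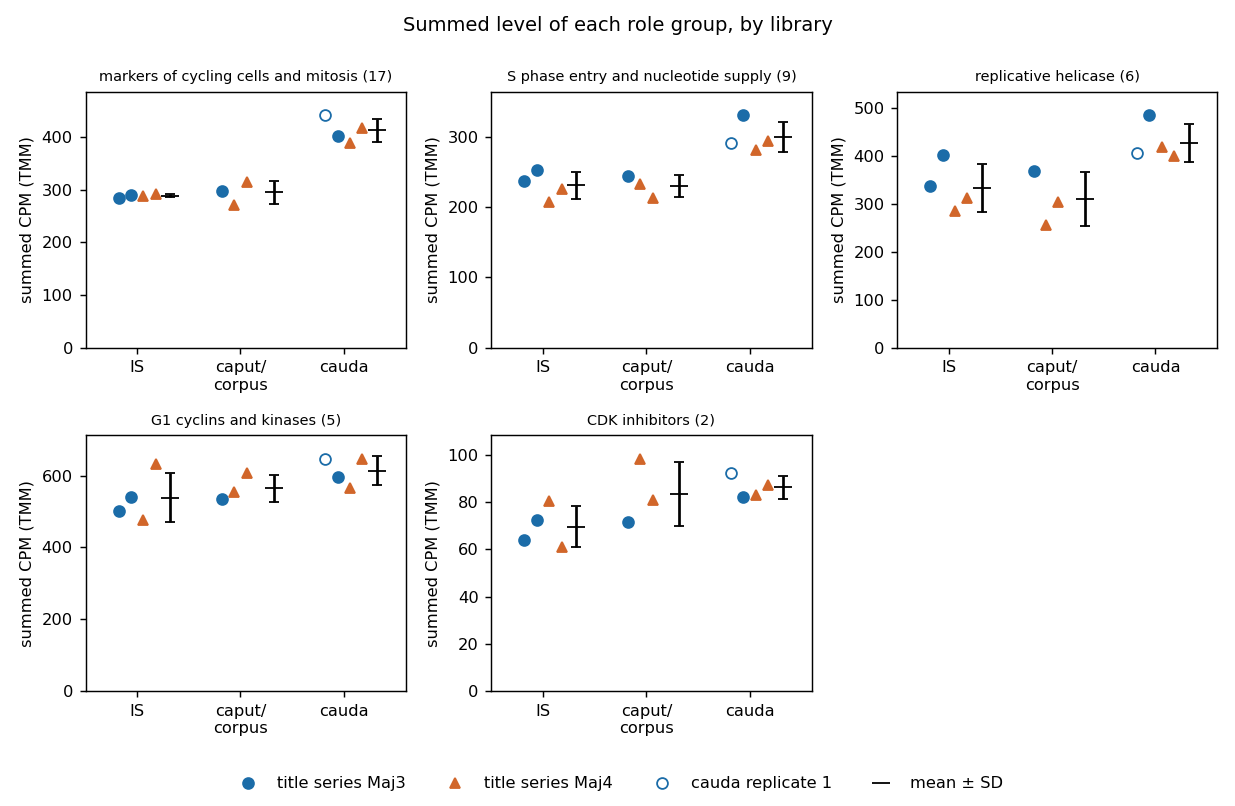
Summed level of each role group (CPM on the TMM effective library size) in each of the 11 libraries, by region. Points are libraries, marked by title series, the open circle is cauda replicate 1, and bars are the mean ± SD over the libraries of a region. The cauda libraries lie above all others for the mitosis markers (390 to 442 CPM) and the S phase genes (282 to 331 CPM).

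Between IS and cauda, 6 of the 39 members passed the test, all of them lower in IS: Aurkb, Ccnb2, Cdk2, Rrm1, Mcm6 and Ccnd3. Differences were tested by edgeR quasi-likelihood with the title series as a covariate and called at an adjusted p under 0.05 over all 15116 genes tested. The background in this comparison was 16.5% of all genes called in either direction, 9.06% lower and 7.4% higher in IS, so the members' share of 15.4% was near that background. By sign, 31 of 39 members had a negative log2 fold change (IS relative to cauda), with a median of -0.44, against 46.8% of all genes and a median of 0.05 over all genes (33 of 39 and -0.45 without cauda replicate 1). An unadjusted p under 0.05 was reached by 16 members and by 29.7% of all genes. Every cauda library lay above every IS library for 10 members (Aurkb, Birc5, Bub1, Kif11, Cdk1, Ube2c, Ccne1, Rrm1, Mcm6 and Ccnd3), where 8.13% of all genes did so. For 0 members did every IS library lie above every cauda library, which 10.5% of all genes did. With cauda replicate 1 left out, the count of members called was 12, all lower in IS, beside 20.8% of all genes. The count was 3 without IS replicate 1 (11.3% of all genes) or without IS replicate 2 (11.8%). DESeq2 called 9 members, all lower in IS, beside 23.8% of all genes.

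Among the mitosis markers, Aurkb and Ccnb2 passed the test between IS and cauda. Aurkb encodes the Aurora B kinase of the chromosomal passenger complex, which corrects the attachment of chromosomes to the spindle and acts in cytokinesis. It measured 25.3, 20.6, 16.5 and 18.5 CPM in the 4 IS libraries, 28.3, 29.0 and 26.8 CPM in the 3 of caput/corpus and 53.9, 54.2, 40.7 and 37.0 CPM in the 4 of the cauda. The highest IS library lay under the lowest caput/corpus library, and the highest of these lay under the lowest cauda library. The means were 20.2 ± 3.78 in IS (SD, n = 4), 28.1 ± 1.12 in caput/corpus (SD, n = 3) and 46.4 ± 8.93 in cauda (SD, n = 4). Relative to cauda the log2 fold change in IS was -1.19 ± 0.15 (SE), a 2.28-fold lower level, with an edgeR adjusted p of 0.000536. Leaving out each of the 11 libraries in turn did not end this call, and the log2 fold change was -1.14 within title series Maj4 and -1.18 within Maj3.

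Ccnb2, a B-type cyclin that activates CDK1 at the entry into mitosis, measured 23.1, 22.1, 16.6 and 12.5 CPM in the 4 IS libraries, 24.2, 17.7 and 16.7 CPM in the 3 of caput/corpus and 62.9, 37.6, 20.4 and 23.2 CPM in the 4 of the cauda. The IS and cauda libraries overlapped, and cauda replicate 1 was the highest of all. Its log2 fold change in IS relative to cauda was -0.88 ± 0.22 with an edgeR adjusted p of 0.0229. Leaving out IS replicate 1, 2 or 4 ended the call (adjusted p up to 0.0753), which was also made without cauda replicate 1, with a log2 fold change of -0.64.

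Mki67 and Top2a, the usual markers of cycling cells, did not pass the test in any comparison of regions. Mki67, whose protein coats mitotic chromosomes, measured 27.2, 20.4, 33.3 and 38.6 CPM in the 4 IS libraries, 22.7, 35.6 and 34.0 CPM in the 3 of caput/corpus and 21.5, 27.8, 42.3 and 46.8 CPM in the 4 of the cauda. The 3 regions overlapped, with means of 29.9 ± 7.83 in IS (SD, n = 4), 30.8 ± 7.06 in caput/corpus (SD, n = 3) and 34.6 ± 11.9 in cauda (SD, n = 4). The log2 fold change of Mki67 in IS relative to cauda was -0.18 ± 0.16, with an edgeR adjusted p of 0.499. Top2a, the topoisomerase that untangles replicated DNA, measured 37.4, 34.7, 52.0 and 50.3 CPM in the 4 IS libraries, 36.5, 40.4 and 54.9 CPM in the 3 of caput/corpus and 3.73, 47.1, 63.9 and 86.6 CPM in the 4 of the cauda. The single low value, 3.73 CPM in cauda replicate 1, lay far under the range of 34.7 to 86.6 CPM in the other 10 libraries. With all libraries the log2 fold change of Top2a in IS relative to cauda was -0.06 ± 0.57, with an edgeR adjusted p of 0.959. Without cauda replicate 1 the value was -0.50 and Top2a was called lower in IS.

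The other 13 mitosis markers did not pass the test between IS and cauda. The survivin gene Birc5, a partner of Aurora B, averaged 17.0 CPM in IS and 25.1 in cauda, with a log2 fold change of -0.56 ± 0.19. Ube2c, the ubiquitin-conjugating enzyme of the anaphase-promoting complex, averaged 11.6 and 20.02 CPM (log2 fold change -0.78 ± 0.25). Both had all cauda libraries above all IS libraries, and both were called without cauda replicate 1. The spindle motor gene Kif11 and the mitotic kinase gene Cdk1 also had no overlap between IS and cauda, with log2 fold changes of -1.01 and -0.62 (-0.92 and -0.37 without cauda replicate 1). The remaining log2 fold changes of IS relative to cauda included -0.66 for the checkpoint kinase Bub1 and -0.77 for Aurka. For the cyclin Ccnb1 and the kinase Plk1 they were -0.29 and -0.67, or -0.50 and -0.51 without cauda replicate 1. For Cdc20, an activator of the anaphase-promoting complex, the value was -0.27, and for the spindle factor Tpx2 it was -0.65, or -0.29 without cauda replicate 1. The kinetochore gene Cenpe had a log2 fold change of 0.01. That of Cenpf, also a kinetochore gene, was 0.13 with all libraries and 0.64 without cauda replicate 1. For the checkpoint gene Bub1b the sign turned with that library, which had 0 reads: the fitted log2 fold change was 0.24 with it and -0.25 without it, and the other 3 cauda libraries measured 31.0, 29.1 and 37.5 CPM beside a mean of 26.8 in IS. None of Bub1b, Cenpe, Cenpf and Tpx2 was called in either fit.

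Of the 9 genes of S phase entry and nucleotide supply, Rrm1 and Cdk2 passed the test between IS and cauda. Rrm1 encodes the large subunit of ribonucleotide reductase, which makes the deoxynucleotides for DNA synthesis. It measured 51.8, 53.8, 35.4 and 45.7 CPM in the 4 IS libraries, 58.2, 51.7 and 50.1 CPM in the 3 of caput/corpus and 65.5, 72.8, 63.2 and 62.2 CPM in the 4 of the cauda. Every cauda library lay above every library of the other regions. In IS relative to cauda its log2 fold change was -0.51 ± 0.12, a 1.42-fold lower level, with an edgeR adjusted p of 0.0141. It was called with each of the 11 libraries left out in turn. Its log2 fold change was -0.62 within Maj4 and -0.34 within Maj3.

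Cdk2, the kinase that works with cyclins E and A, had the highest mean CPM of the S phase genes and measured 51.6, 46.5, 40.1 and 59.3 CPM in the 4 IS libraries, 51.8, 52.3 and 39.7 CPM in the 3 of caput/corpus and 87.7, 71.4, 57.5 and 72.3 CPM in the 4 of the cauda. The highest IS library lay above the lowest cauda library, while all cauda libraries lay above all caput/corpus libraries. Its log2 fold change in IS relative to cauda was -0.54 ± 0.17 with an edgeR adjusted p of 0.0495, close to the threshold. The call was lost in 9 of the 11 fits that left out 1 library, cauda replicate 1 among them, with adjusted p up to 0.142.

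Ccna2, the cyclin of S phase and G2, had the largest fold change of the S phase genes between IS and cauda without passing the test, and measured 18.5, 18.8, 21.1 and 17.4 CPM in the 4 IS libraries, 22.4, 16.6 and 29.9 CPM in the 3 of caput/corpus and 9.62, 29.4, 41.5 and 35.0 CPM in the 4 of the cauda. Cauda replicate 1 was the lowest of the 11 libraries and the other 3 cauda libraries lay above all IS libraries. The log2 fold change of Ccna2 in IS relative to cauda was -0.55 ± 0.36, with an edgeR adjusted p of 0.357, and Ccna2 was called lower in IS without cauda replicate 1 (-0.87). Rrm2, the small subunit of ribonucleotide reductase, averaged 27.0 CPM in IS and 35.9 in cauda (log2 fold change -0.44 ± 0.23). Among the 22 alternatives run, Rrm2 was called only without cauda replicate 1 (-0.63) or without the 3 libraries in conflict. The E-type cyclins Ccne1 and Ccne2 had log2 fold changes of -0.55 and 0.21. Those of the thymidylate genes Tyms and Tk1 were -0.16 and 0.05. Pcna, the sliding clamp of the replication fork, averaged 33.4, 34.1 and 38.9 CPM in IS, caput/corpus and cauda, with a log2 fold change of -0.22 between IS and cauda.

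All 6 genes of the MCM helicase, the ring that opens DNA at the replication fork, had negative log2 fold changes in IS relative to cauda, and 1 of them, Mcm6, passed the test. Mcm6 measured 83.5, 96.2, 83.5 and 71.1 CPM in the 4 IS libraries, 96.8, 64.2 and 86.0 CPM in the 3 of caput/corpus and 109, 126, 119.7 and 106 CPM in the 4 of the cauda. All cauda libraries lay above all libraries of the other regions. In IS its log2 fold change relative to cauda was -0.47 ± 0.13 with an edgeR adjusted p of 0.0315. It was lost in 7 of the 11 fits that left out 1 library, with adjusted p up to 0.0931, though not without cauda replicate 1. Mcm4 had the largest fold change of the helicase genes and measured 42.5, 56.1, 38.6 and 57.9 CPM in the 4 IS libraries, 53.9, 36.3 and 43.3 CPM in the 3 of caput/corpus and 104, 71.2, 57.8 and 64.2 CPM in the 4 of the cauda. Its cauda libraries lay above those of caput/corpus and overlapped those of IS. For Mcm4 the log2 fold change in IS relative to cauda was -0.58 ± 0.19, with an edgeR adjusted p of 0.0653. The other 4 helicase genes had log2 fold changes of -0.44 (Mcm2), -0.11 (Mcm3), -0.17 (Mcm5) and -0.44 (Mcm7). Mcm2 was called lower in IS without cauda replicate 1. Mcm5 measured 18.7 CPM in cauda replicate 1 and 60.6 to 66.2 in the other 3 cauda libraries, and without that library its log2 fold change was -0.51.

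Of the D-type cyclins and their kinases, which pass signals from growth factors to the cell cycle, Ccnd3 differed between regions. This cyclin gene measured 51.7, 82.8, 53.1 and 60.8 CPM in the 4 IS libraries, 137, 144 and 113 CPM in the 3 of caput/corpus and 249, 173, 135 and 128 CPM in the 4 of the cauda. Every IS library lay under every library of the other regions, and caput/corpus and cauda overlapped. The means were 62.1 ± 14.4 in IS (SD, n = 4), 131 ± 16.6 in caput/corpus (SD, n = 3) and 171 ± 55.7 in cauda (SD, n = 4). Its log2 fold change in IS relative to cauda was -1.44 ± 0.19, a 2.71-fold lower level, with an edgeR adjusted p of 0.000814. The value was -1.20 within Maj4 and -1.59 within Maj3, and the call held with each of the 11 libraries left out (-1.26 without cauda replicate 1).

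Ccnd2, the D-type cyclin with the highest mean CPM of this role, went the other way without passing the test: 219, 222, 165 and 279 CPM in the 4 IS libraries, 155, 142 and 181 CPM in the 3 of caput/corpus and 176, 158, 108 and 204 CPM in the 4 of the cauda. The regions overlapped, with a log2 fold change in IS relative to cauda of 0.45 ± 0.21 and an edgeR adjusted p of 0.177. Ccnd1 averaged 87.5 CPM in IS, 114 in caput/corpus and 121 in cauda (log2 fold change between IS and cauda -0.43 ± 0.18). It was called lower in IS without cauda replicate 1 (-0.61). The kinase genes Cdk4 and Cdk6 had log2 fold changes of 0.05 and 0.11, and that of Cdk6 was -0.02 without cauda replicate 1.

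Neither inhibitor of cyclin-dependent kinases passed the test in any comparison of regions. Cdkn1a, which encodes p21 and is a target of p53, measured 46.6, 62.6, 59.8 and 40.4 CPM in the 4 IS libraries, 58.6, 76.5 and 58.0 CPM in the 3 of caput/corpus and 70.5, 69.3, 55.9 and 62.7 CPM in the 4 of the cauda. The IS and cauda libraries overlapped, with a log2 fold change of -0.30 ± 0.17 and an edgeR adjusted p of 0.267. Cdkn1b, which encodes p27, measured 17.3, 9.84, 20.6 and 20.9 CPM in the 4 IS libraries, 13.2, 22.0 and 22.8 CPM in the 3 of caput/corpus and 22.1, 12.9, 27.2 and 24.8 CPM in the 4 of the cauda. The regions overlapped here too, with a log2 fold change between IS and cauda of -0.34 ± 0.24 and an edgeR adjusted p of 0.381. Without cauda replicate 1 this log2 fold change of Cdkn1b was -0.17.

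**Figure D2:**
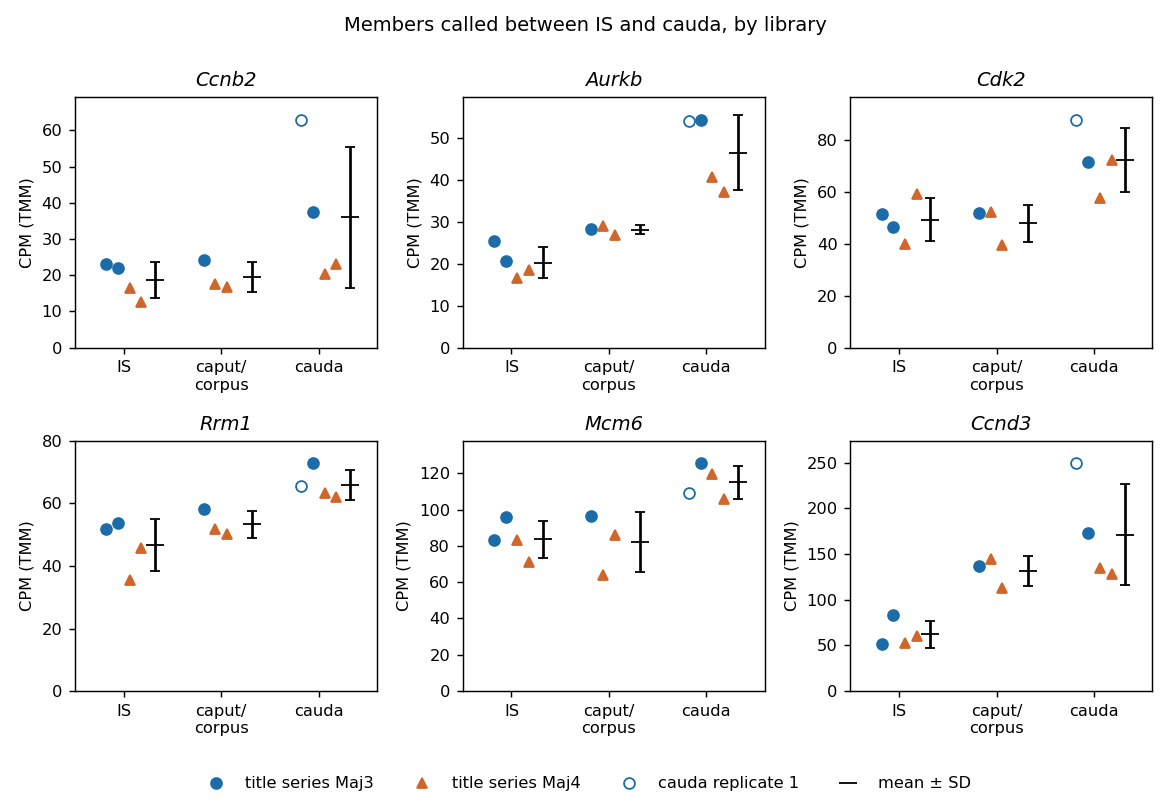
Level of the 6 members called between IS and cauda (CPM on the TMM effective library size) in each library, by region. Points are libraries, marked by title series, the open circle is cauda replicate 1, and bars are the mean ± SD. Aurkb, Rrm1, Mcm6 and Ccnd3 have no overlap between IS and cauda, while Ccnb2 and Cdk2 do overlap.

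**Figure D3:**
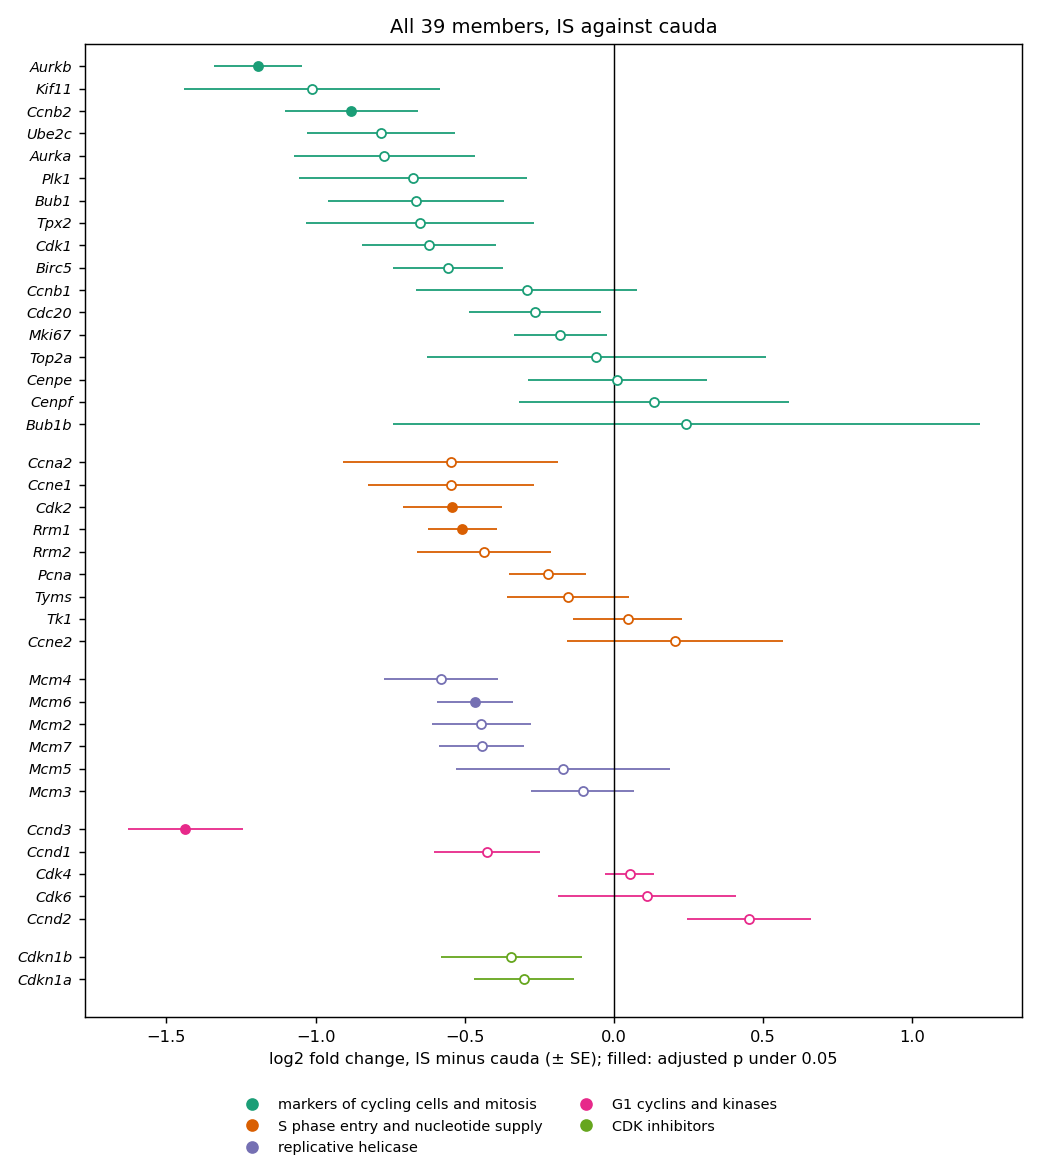
Log2 fold change of each of the 39 members in IS relative to cauda (x axis), with bars of 1 SE from the edgeR fit, grouped and coloured by role. Filled points are the 6 members with an adjusted p under 0.05, and 31 of the 39 points lie left of 0, on the side of lower levels in IS.

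Between IS and caput/corpus, 1 of the 39 members, Ccnd3, passed the edgeR test, beside 3.78% of all genes called, 2.98% lower and 0.794% higher in IS. The log2 fold change of Ccnd3 was -1.15 ± 0.21 in IS relative to caput/corpus, a 2.22-fold lower level, with an edgeR adjusted p of 0.0135. Leaving out IS replicate 3 or caput/corpus replicate 2 ended the call (adjusted p up to 0.0724). The log2 fold changes of the 39 members had a median of -0.02, against 0.02 for all genes. Of the members 21 were negative and 18 positive, beside 48.1% negative over all genes. Aurkb and Ccnd3 had every caput/corpus library above every IS library, where 7.68% of all genes did, and Cdk1 had every IS library above every caput/corpus library, where 6.73% of all genes did. The log2 fold change of Aurkb in this comparison was -0.55 ± 0.16, with an edgeR adjusted p of 0.102. Without cauda replicate 1, Aurkb was also called and the count was 2, beside 9.02% of all genes. DESeq2 called 3 members (Aurkb and Ccnd3 lower in IS, Ccne2 higher), beside 8.35% of all genes. Within Maj4 alone Ccnd3 was the 1 member called, beside 3.07% of all genes.

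Between cauda and caput/corpus, 0 of the 39 members passed the edgeR test, and 0.615% of all genes did, 0.0331% higher and 0.582% lower in cauda. An unadjusted p under 0.05 was reached by 11 members and by 11.7% of all genes. With a pseudocount of 1 or 0.1 limma called 0 members, beside 0.809% and 0.991% of all genes. DESeq2 called 1 member, Aurkb, with a log2 fold change of 0.63 ± 0.16 in cauda relative to caput/corpus and a DESeq2 adjusted p of 0.0043, beside 4.21% of all genes. The signs were nearly all the same: 36 of the 39 members had a positive log2 fold change (cauda relative to caput/corpus), with a median of 0.33. Of all 15116 genes 7296 had a positive one, with a median of -0.02. Without cauda replicate 1 the median of the members was 0.41 and 6 of the 39 were negative. Every cauda library lay above every caput/corpus library for 14 members, where 3.05% of all genes did so. These were the mitosis markers Aurkb, Cdk1, Kif11, Tpx2 and Ube2c, the S phase genes Ccne1, Ccne2, Cdk2, Rrm1 and Tyms, and the helicase genes Mcm2, Mcm4, Mcm6 and Mcm7. The count was 15 without cauda replicate 1, where the background was 5.44%, and the edgeR test then called 0 members and 1.37% of all genes, with an unadjusted p under 0.05 for 21 members and 14.9% of all genes. Within Maj3 alone edgeR called 0 members and 0.031% of all genes, with an unadjusted p under 0.05 for 0 members and 4.65% of all genes. The reverse, all caput/corpus libraries above all cauda libraries, held for 0 members and 6.59% of all genes. This comparison and that of IS with cauda share the cauda libraries.

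A further 165 cell cycle genes were read from lists of DNA replication, mitosis, the RB, E2F and DREAM factors, further CDK inhibitors, p53 targets and growth arrest genes, and growth factor and MYC input, of which 164 were tested. Between IS and cauda 17 of the 164 were called lower in IS and 6 higher, a share near the background of 16.5% of all genes. Of the 53 genes of the mitosis list, 7 were called lower in IS and 1, the centromere factor Hjurp, was called higher with a log2 fold change of 0.35. The 4 with the smallest p were Racgap1, which acts in cytokinesis (-1.11), the spindle gene Nusap1 (-1.13), the kinesin Kif23 (-0.74) and the CDK subunit Cks1b (-0.67). The DNA replication list had 1 of 45 genes called, the polymerase subunit Pold1 (-0.43), and the RB and E2F list had 1 of 23, E2f1 (-1.01), both lower in IS. These counts of the mitosis, replication and RB lists stand beside 9.06% of all genes lower and 7.4% higher in IS. Of the 6 further CDK inhibitors 0 were called by edgeR in this comparison, with an unadjusted p under 0.05 for 2 of them and 29.7% of all genes.

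The p53 and growth arrest list holds targets of p53 and genes of growth arrest, several of which, such as Klf4, Plk2, Gadd45b and Btg2, are also known as early response genes. Between IS and cauda 7 of its 22 genes were lower in IS, beside 9.06% of all genes. They were led by the transcription factor Klf4 (-2.30), the BH3-only gene Pmaip1 (-2.21), the kinase Plk2 (-1.88) and the stress gene Gadd45b (-2.27). Another 2 were higher, Plk3 (1.47) and Trp53 itself (0.45), beside 7.4% of all genes. Between IS and caput/corpus 7 of the 22 were lower in IS, beside 2.98% of all genes, with Plk2 (-2.09), Gadd45b (-2.56), Pmaip1 (-1.91) and Klf4 (-1.77) first by p. These were all the genes called among the 164 genes in that comparison. Of the growth factor and MYC list, the genes higher in IS than in cauda included the receptor for CSF1 Csf1r (1.14), which is also a macrophage marker, and the factor Maf (0.87). Mycl (-1.27) and Cks1b, which is also on the mitosis list, were lower. Between cauda and caput/corpus 0 of the 164 genes were called by edgeR, with an unadjusted p under 0.05 for 9 of them and 11.7% of all genes.

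Markers of other cells also differed between the regions. Of all genes, 2.98% were called lower in IS than in caput/corpus and 9.06% lower in IS than in cauda. The 6 mast cell markers summed to 33.0 to 90.9 CPM in IS, 568 to 866 in caput/corpus and 855 to 3028 in cauda, and all 6 were called lower in IS in both of its comparisons. The 4 monocyte markers summed to 452 to 1163, 1562 to 2327 and 2361 to 3393 CPM in the same order, with Ccr2 the highest, and 4 of 4 were called between IS and cauda. The 8 dendritic cell markers reached 462 to 745, 1434 to 1750 and 1221 to 2382 CPM, with 5 of 8 called lower in IS than in cauda. The sums of mast cell, monocyte and dendritic cell markers were thus lowest in IS. The 6 called members were lower in IS than in cauda. Against caput/corpus, edgeR called Ccnd3 lower in IS, beside 2.98% of all genes. DESeq2 called Aurkb and Ccnd3 lower and Ccne2 higher in IS than in caput/corpus, beside 8.35% of all genes. All 8 macrophage markers were detected in every library, with Csf1r the highest. Their sum ran opposite to those lists, at 7101 to 8081, 5266 to 6913 and 4218 to 5176 CPM in IS, caput/corpus and cauda. Of these 8 genes 5 were called higher in IS than in cauda, beside 7.4% of all genes, and 1, the leukocyte gene Ptprc, was called lower (-0.40). Epithelial markers summed to 1132 to 2691 CPM in IS, 313 to 618 in caput/corpus and 17.4 to 41.6 in cauda. Macrophage and epithelial sums were thus lowest in the cauda. T and NK cell markers summed to 44.9 to 87.1, 58.5 to 85.2 and 1.95 to 31.9 CPM. Stromal markers reached 34.7 to 185, 35.2 to 180 and 16.5 to 43.1 CPM. The T and NK cell sum was lower in every cauda library than in any other library, while the stromal sums overlapped. Of the 8 T and NK cell genes, Cd4 and Klrb1c were called higher in IS than in cauda, beside 7.4% of all genes. These 2 averaged 24.4 and 22.7 CPM in IS and 5.96 and 2.04 in cauda. The other genes of this list were not called and overlapped between IS and cauda. Neutrophil markers were near 0, at most 0.352 CPM in sum with S100a9 and Ly6g at 0 in every library, sperm markers summed to at most 7.70 CPM, and the B cell list, at 35.2 to 99.3 CPM, consisted almost wholly of Cd79b. The part of these other cells in the cell cycle values was not tested.

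The title series, Maj3 (5 libraries) and Maj4 (6 libraries), each held all 3 regions and was itself associated with some members. In the same edgeR fit 5 of the 39 members differed between the series, beside 20.3% of all genes. Cdk6 measured 19.6, 13.2, 47.6 and 67.3 CPM in the 4 IS libraries, 14.7, 36.8 and 88.2 CPM in the 3 of caput/corpus and 10.8, 19.1, 64.6 and 43.7 CPM in the 4 of the cauda. Its 5 Maj3 libraries lay between 10.8 and 19.6 CPM and its 6 Maj4 libraries between 36.8 and 88.2, with a log2 fold change of 1.90 in Maj4. Mki67 was likewise higher in Maj4 (20.4 to 27.8 CPM in Maj3 and 33.3 to 46.8 in Maj4, log2 fold change 0.70), as was Ccnd1 (0.52). Ccnb2 (-0.82) and Cdk4 (-0.29) were lower in Maj4. Within Maj4 alone 2 members were called between IS and cauda, Aurkb and Ccnd3, beside 7.67% of all genes. Within Maj3 alone 0 were called by edgeR, with an unadjusted p under 0.05 for 6 members and 12.6% of all genes, and 0.186% of all genes called, and the lone caput/corpus library was assumed to vary like the others. Negative log2 fold changes between IS and cauda numbered 31 of 39 in Maj4 and 28 of 39 in Maj3. The medians of the members were -0.40 and -0.30, against 0.02 and 0.15 over all genes.

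**Figure D4:**
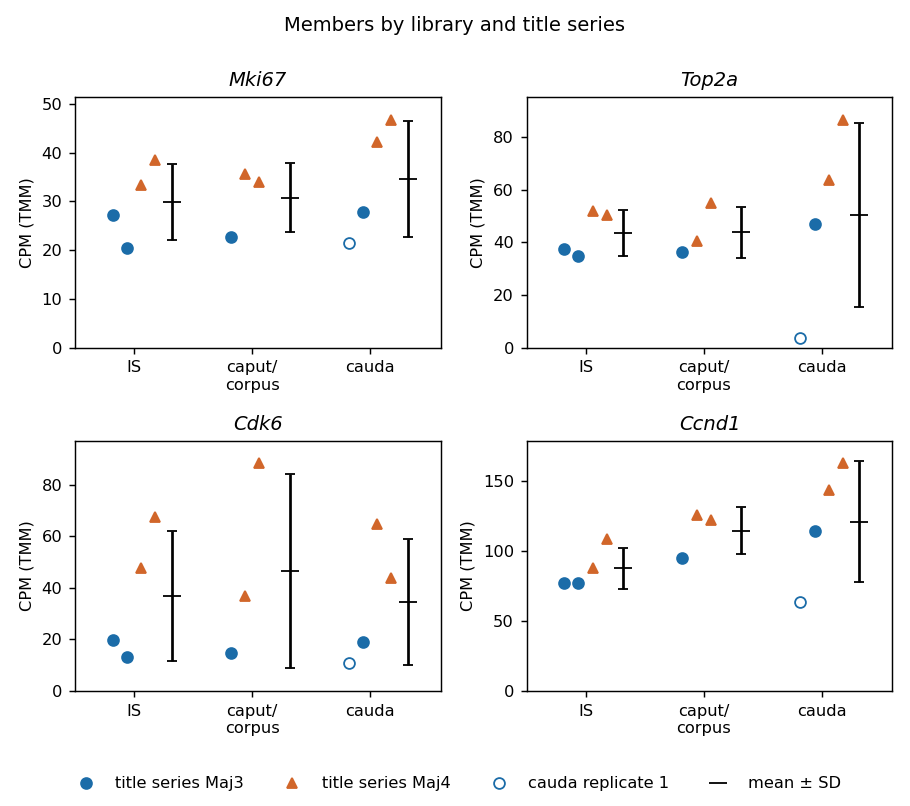
Level of Mki67, Top2a, Cdk6 and Ccnd1 (CPM on the TMM effective library size) in each library, by region. Points are libraries, marked by title series, the open circle is cauda replicate 1, and bars are the mean ± SD. For Mki67 and Cdk6 the Maj4 libraries lie above all Maj3 libraries (33.3 to 46.8 against 20.4 to 27.8 CPM for Mki67).

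Cauda replicate 1 was the highest or the lowest of the 4 cauda libraries for 26 of the 39 members, and each of the other 3 cauda libraries for 15 to 19. The same count was not made over all genes, so it is not known to be particular to the members. The high members of cauda replicate 1 included Ccnb2 (62.9 CPM), Tpx2 (58.8), Ccnd3 (249) and Mcm4 (104). Low values in it included Top2a (3.73 CPM), Mcm5 (18.7) and Bub1b (0 reads). The 12 members called lower in IS when it was left out were Aurkb, Birc5, Ccna2, Ccnb2, Top2a, Ube2c, Rrm1, Rrm2, Mcm2, Mcm6, Ccnd1 and Ccnd3.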

How the data were processed

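RNA of sorted EGFP+ cells was taken with a PicoRNA kit, made into SMARTer v4 libraries and sequenced on a HiSeq2500, per the labels' protocols. The submitters' processing notes name STAR, HTSeq, edgeR and the genome build mm9, without versions. The deposited files hold read counts per gene for each sample, not normalized and counted without regard to strand, and 1 table of RPKM values by the authors for all 11 samples. RPKM multiplied by gene length gave whole reads for 100% of values in each column (tolerance 0.001), and these reads of the named column were analysed. For 8 samples they equal the deposited counts. The file under caput/corpus replicate 1 holds the reads of the column IS replicate 2, the file under cauda replicate 1 those of the column caput/corpus replicate 1, and the file under IS replicate 2 those of no column. The reads of cauda replicate 1 therefore come from the RPKM column alone.

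Reads were scaled by TMM, filtered with filterByExpr by region and tested in 1 fit of all 11 libraries with the edgeR quasi-likelihood test (edgeR 4.0.16, R 4.3.3), with region and title series as terms. P-values were adjusted over 15116 genes by Benjamini-Hochberg and called under 0.05. The SE of a log2 fold change was derived from the F statistic. DESeq2 1.42.0 and limma 3.58.1 on log2(RPKM + 1) and log2(RPKM + 0.1) were alternatives, beside those given in the closing section. The rule that takes the members by name uses no measured value, but the members, lists and tests were chosen with earlier results of these data known. Values in every library are given for called members, Mki67, Top2a and, per role, the member with the highest CPM and that with the largest fold change between IS and cauda. From other lists up to 4 called genes with the smallest p are named, and any further gene was named after its values were seen. A gene of these lists that the rule would name is not reported here. Reads shared by close paralogs, or by overlapping genes on opposite strands, cannot be told apart in these counts. Gene positions on mm9 were not used here, and promoter windows are from RefSeq, GRCm38.p6.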

Additional observations from a re-analysis of the deposited data

Results flagged for a closer look

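In 6 of 78 groups of 4 libraries (each member in IS and in cauda), 1 library lay farther from the rest than Dixon's 95% limit allows, and chance alone flags about 1 in 20 groups. Of these, 4 were cauda replicate 1: Cdk1 at 40.2 CPM against 19.8 to 22.4 in the other 3 cauda libraries, Cenpf at 23.3 against 6.99 to 8.19, Tpx2 at 58.8 against 20.6 to 25.1, and Mcm5 low at 18.7 against 60.6 to 66.2. The other 2 were IS replicate 2, with Birc5 at 21.0 CPM (20.961) against 15.4 to 16.2 in the other IS libraries and Mcm7 at 38.2 against 28.1 to 28.6.

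The count file under IS replicate 2 holds a set of reads that equals no column of the expression table, and no comparison above used it. In it 32 of the 39 members lay within the range of the 11 libraries analysed, 6 lay above the highest and 1 under the lowest. The inhibitor Cdkn1a stood at 349 CPM against 40.4 to 76.5 in the 11 libraries, and the replication clamp Pcna at 118 against 30.0 to 43.3. Smaller excesses were seen for Cdkn1b (34.2 CPM against 9.84 to 27.2), Tk1 (39.3 against 20.4 to 33.1), Bub1 (13.8 against 4.10 to 11.3) and Ccnb1 (8.68 against 3.45 to 8.57). These are single values with no test, and the region and animals behind this set of reads were not settled here.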

How the results depend on the processing

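The 6 members called between IS and cauda (all genes called, in brackets throughout: 16.5%) became 2 without the title series term (9.80%), 0 with the counts as filed (0.0263%), 10 in the 8 libraries without a conflict (15.8%), 2 in Maj4 alone (7.67%) and 0 in Maj3 alone (0.186%), and ranged from 3 to 12 when 1 library was left out. With the counts as filed 4 genes in all were called. The fits that left out 1 library called 10.9% to 20.8% of all genes between IS and cauda. Between IS and caput/corpus the 1 member called became 3 with DESeq2 (8.35%) and 0 without the title series term (1.54%) or with the counts as filed (0%). It ranged from 0 to 2 with 1 library left out (1.47% to 9.02%). Between cauda and caput/corpus DESeq2 called 1 (4.21%) and every other setting run called 0 (0% to 1.37%). The causes of these changes were not tested, and the subsets also hold fewer libraries. The remaining settings for IS and cauda gave 9 members with DESeq2 (23.8%), 7 with limma at either pseudocount (17.0% and 16.7%), 5 with robust estimation (16.2%), added after seeing the data, and 4 with no filter on low counts (9.505%). No log2 fold change of a called member changed sign. With the label number as a replicate block, 6 members were called between IS and cauda (15.6%), 5 lower and 1 higher in IS (Ccnd2). That fit called 1 member between IS and caput/corpus (2.63%) and 0 between cauda and caput/corpus (0.271%). The numbers share no stated animals, and same-numbered libraries did not deviate together (correlations over genes of -0.04 to 0.08). Among the 39 members the SE of the log2 fold change between IS and cauda ran from 0.08 (Cdk4) to 0.98 (Bub1b), which sets what could be detected for each.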
